A study of Mus musculus with 24 samples.

Results

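The collagen genes were the 44 genes on the array whose mouse RefSeq symbol consists of Col, a number, the letter a and a chain number, out of 22911 matched symbols and 45616 features (1 probe for each gene, or for each target without a symbol). Their messenger RNA was measured in white adipose tissue (WAT), kidney, lung and liver of male C57BL/6J mice aged 10 weeks or 90 weeks, with 3 samples per age and tissue and 1 single-colour Agilent array per sample, 24 arrays in all. The labels give no treatment or transgene for any sample, so age and tissue were the only differences stated between groups. They number the samples without saying whether each came from a separate mouse, so p-values here measure the spread between these arrays. The study dealt with senescent cells and their removal in ageing tissue, and it followed Col3a1 and Col5a2 as fibrosis markers in another mouse experiment not analysed here.

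Collagens are built from 3 chains wound into a triple helix, and the genes code for the single chains. The fibrillar collagens (I, II, III, V, XI, XXIV and XXVII) form the cable-like fibres of connective tissue, collagen IV forms the sheet-like network of basement membranes, collagen VI forms beaded filaments around cells, and the fibril-associated collagens (FACITs) sit on the surface of fibres. In most organs fibroblasts and related mesenchymal cells make the fibrillar chains, while epithelial and endothelial cells contribute much of the basement membrane. Accumulation of collagens I and III is a hallmark of fibrosis.

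Several collagen genes lie beside each other in the genome (coordinates of the RefSeq genes, GRCm38.p6). Col4a1 (chr8:11198423-11312889) and Col4a2 overlapped by 85 bases, and Col4a3 and Col4a4 on chromosome 1 overlapped by 114 bases. Col4a5 and Col4a6 on chromosome X lay 1274 bases apart. Col3a1 (chr1:45311538-45349706) and Col5a2 lay 24624 bases apart, and Col6a1 and Col6a2 on chromosome 10 lay 85161 bases apart. In all, the 44 genes were spread over 15 chromosomes.

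The RefSeq promoter table held a window for 35 of the 44 genes (38 windows). The 250 bases before the start were searched on both strands for 3 core promoter motifs. GGGCGG (the GC box, a site for Sp1-type factors) was in 22 of 38 collagen windows against 32.7% of all 32851 windows, CCAAT in 13 of 38 against 33.8%, and TATAAA in 5 of 38 against 12.4%. The stretches of 4 genes are printed, 5′ to 3′ on the strand of the gene, with motif matches on either strand in capitals: Col1a2, Col3a1 and Col5a1, which were among the 5 collagens with the smallest p for an age change that differed between tissues, and Col6a5, which had the largest fitted age change in kidney under the main scaling. They are Col1a2 (chr6:4505368-4505617, plus strand), Col3a1 (chr1:45311288-45311537, plus strand), Col5a1 (chr2:27886175-27886424, plus strand) and Col6a5 (chr9:105960644-105960893, minus strand).
Col1a2: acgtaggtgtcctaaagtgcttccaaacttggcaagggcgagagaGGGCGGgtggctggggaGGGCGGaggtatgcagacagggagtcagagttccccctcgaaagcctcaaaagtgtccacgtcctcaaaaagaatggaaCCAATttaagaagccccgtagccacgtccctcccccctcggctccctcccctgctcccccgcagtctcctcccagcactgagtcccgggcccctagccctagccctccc
Col3a1: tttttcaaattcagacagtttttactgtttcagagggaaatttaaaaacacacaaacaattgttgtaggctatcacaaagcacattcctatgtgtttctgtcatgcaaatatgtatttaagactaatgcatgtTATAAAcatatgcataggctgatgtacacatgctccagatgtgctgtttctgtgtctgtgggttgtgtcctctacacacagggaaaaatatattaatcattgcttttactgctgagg
Col5a1: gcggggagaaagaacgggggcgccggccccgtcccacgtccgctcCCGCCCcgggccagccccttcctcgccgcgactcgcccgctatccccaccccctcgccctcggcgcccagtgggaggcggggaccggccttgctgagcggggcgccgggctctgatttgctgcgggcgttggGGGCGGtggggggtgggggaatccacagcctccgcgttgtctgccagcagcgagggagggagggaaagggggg
Col6a5: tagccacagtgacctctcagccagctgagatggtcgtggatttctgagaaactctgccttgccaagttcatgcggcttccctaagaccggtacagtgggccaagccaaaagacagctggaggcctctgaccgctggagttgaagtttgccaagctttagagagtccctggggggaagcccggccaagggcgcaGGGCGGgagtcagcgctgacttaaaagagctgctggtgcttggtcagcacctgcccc
The Col1a2 stretch held a CCAAT box 109 bases before the start and GC boxes 205 and 188 bases before it. Col3a1 held a TATAAA match 117 bases before the start and no match to the other motifs. Col5a1 held GC boxes 205 and 73 bases before the start, the first on the minus strand, and Col6a5 held 1 GC box 57 bases before the start. A match describes these letters and was not tested as a site.

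Arrays differed in brightness, with a 75th percentile signal of 259 to 307 in young liver, 340 to 448 in aged liver and up to 956 in lung. Between 58.6% and 71.1% of probes were well above background per array, and no probe was saturated. Arrays of a group correlated at 0.942 (in young WAT) to 0.995 over all probes. On the log2 scale used below, the lowest signal well above background was -4.71 on aged lung replicate 1 and -6.11 on aged lung replicate 3. The 5 defining markers of each labelled tissue (such as Alb in liver, Sftpc in lung, Umod in kidney and Adipoq in WAT) were well above background on all 6 of its arrays. Levels are given as the log2 processed signal minus the 75th percentile of the array, so that a level of 0 is that percentile, and an age change is the mean level at 90 weeks minus that at 10 weeks. A gene was tested in a tissue where 3 or more of the 6 arrays had its probe well above background. By this filter 32 collagens were kept in liver, 39 in lung, 40 in kidney and 40 in WAT, and 31 in all 4 tissues. In liver none was kept through the arrays of 1 age alone, but 1 was in lung, 3 in kidney and 1 in WAT.

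At 10 weeks WAT and lung held the highest level of most common collagens, and which of the pair came first depended on the scaling. Of 41 collagens tested across the 12 young arrays, 17 had their highest mean level in WAT, 10 in liver, 8 in lung and 6 in kidney, and the top tissue passed the test against the next one for 15, 4, 6 and 2 of them. The lowest level was in liver for 16, in kidney for 9, in lung for 8 and in WAT for 8. When arrays were scaled to the spike-in spots instead, the highest level was in lung for 20, in WAT for 14, in kidney for 4 and in liver for 3, and the lowest in liver for 25. Tissues differed at many genes: limma called 34 of 41 collagens between liver and lung (background over all 33265 features 72.8%), 38 between liver and WAT (background 67%) and 21 between liver and kidney (background 56%). It called 27 between lung and kidney (background 63.6%), 26 between lung and WAT (background 52.9%) and 27 between kidney and WAT (background 55.8%). In direction, 25 of the 38 were higher in WAT than in liver, 18 of 26 higher in WAT than in lung, and 20 of 27 higher in WAT than in kidney. Liver had 11 collagens higher and 23 lower than lung, and 8 higher and 13 lower than kidney, and lung had 21 higher and 6 lower than kidney. Spike-in scaling moved the median lung minus WAT difference of all features from -0.11 to 0.74 on the log2 scale, and the split turned to 19 collagens higher in lung and 11 higher in WAT. It gave 3 higher and 30 lower in liver than in lung, 6 and 20 for liver against kidney, and 28 and 3 for lung against kidney, while WAT against kidney stayed at 20 and 7. Normexp background correction gave 17 and 22 for liver against lung, and turned liver against kidney to 15 higher and 11 lower. Each tissue was hybridised on a slide of its own, so tissue and slide cannot be told apart here.

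**Figure D1:**
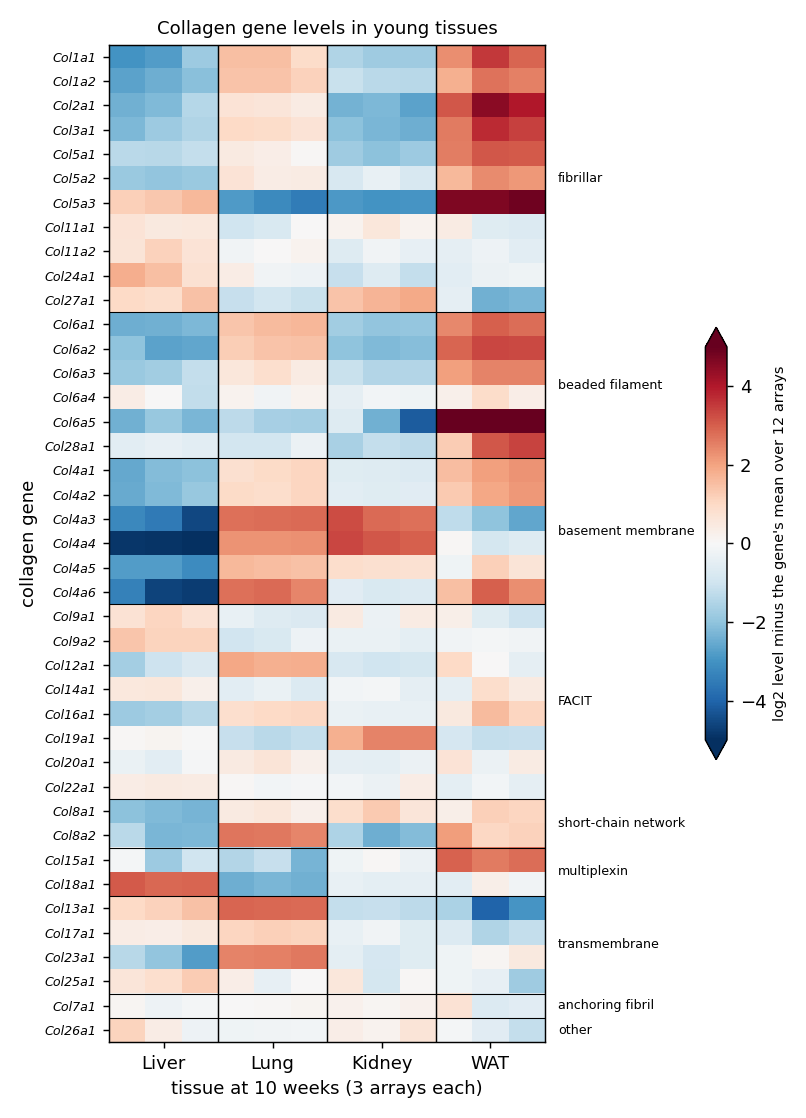
Heat map of the 41 collagen genes tested at 10 weeks (rows, by class) on the 12 young arrays (columns, 3 per tissue), with the colour giving the log2 level minus the mean of that gene over the 12 arrays. Red cells (above the mean of the gene) gather in WAT for fibrillar and collagen VI chains (with lung nearer to WAT under spike-in scaling), in liver for Col18a1, and in kidney and lung for Col4a3 and Col4a4.

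The common chains of collagens I, III and VI had their highest mean in WAT and the next in lung. Col1a1 and Col1a2, which together form collagen I, averaged 4.46 and 6.2 in WAT, 2.84 and 5.18 in lung, -0.14 and 2.56 in kidney, and -0.99 and 1.45 in liver. Between neighbours in that order, kidney and liver did not pass the test for Col1a1 (limma adjusted p = 0.0624) but did for Col1a2 (adjusted p = 0.00242). Col3a1, the chain of collagen III in soft tissue, was highest in WAT (6.31) and then lung (3.93), whereas liver (1.23) and kidney (0.81) did not pass the test against each other (adjusted p = 0.233). Col6a1, Col6a2 and Col6a3, the main chains of collagen VI, likewise had WAT first and lung second, with a WAT minus lung difference of 1.20 to 1.80. Under spike-in scaling lung stayed below WAT and past the test for Col3a1 (lung minus WAT -1.53), Col6a2 (-0.95) and Col6a3 (-0.88). The difference did not pass for Col1a1 (-0.77, adjusted p = 0.115), Col1a2 (-0.16, adjusted p = 0.641) and Col6a1 (-0.35, adjusted p = 0.189).

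Other collagens had a single tissue that stood apart. Col18a1, the source of the fragment endostatin, measured 7.25, 7.04 and 7.08 on the 3 young liver arrays and 3.64, 4.48 and 3.98 on the WAT arrays, with kidney at 3.74 and lung at 1.79 on average. All 3 liver arrays were above every other young array. Col5a3, a chain of collagen V, measured 6.00, 5.99 and 6.17 in WAT against a mean of 2.70 in liver, -1.60 in kidney and -1.85 in lung. Col6a5, a further collagen VI chain, measured 2.17, 3.10 and 3.08 in WAT against -4.68, -5.0 and -5.07 in lung, and was not well above background in young liver. The difference from WAT to lung, the next tissue, was 7.70 on the log2 scale (adjusted p = 9.9e-06). Col19a1, a FACIT, was well above background in young kidney alone, where it averaged -4.46.

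The 6 collagen IV chains differed in their order of tissues. Col4a1 and Col4a2, the chains found in nearly all basement membranes, averaged 5.53 and 5.21 in WAT, 4.54 and 4.39 in lung, 2.94 and 2.86 in kidney, and 1.33 and 1.20 in liver, and every step of that order passed the test. Under spike-in scaling the step from WAT to lung did not, with a lung minus WAT difference of -0.14 for Col4a1 (adjusted p = 0.617) and, turned in sign, 0.0258 for Col4a2 (adjusted p = 0.937). Col4a3 and Col4a4, chains of the glomerular and alveolar basement membrane, were instead highest in kidney (0.93 and 1.49) and lung (0.76 and 0.59), low in WAT (-3.99 and -2.17) and not well above background on any young liver array. Kidney and lung did not pass the test against each other for Col4a3 (adjusted p = 0.706) but did for Col4a4 (adjusted p = 0.00355, and 0.725 under spike-in scaling). Col4a5 was highest in lung (1.23) and then kidney (0.50), and Col4a6 was highest in lung (0.54) and WAT (0.12), with kidney at -2.81. Lung also held the highest level of the membrane-spanning collagens Col13a1 (1.96) and Col23a1 (0.61) and of Col8a2 (0.21), a short-chain collagen, each past the test against the next tissue.

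The kidney had the most collagens that changed with age. Of 40 tested, 24 were higher at 90 weeks (background over all 31485 features 20.7%) and 9 were lower (background 42.5%), and levels did not overlap between ages for 24 that were higher and 11 that were lower (background 70.7%, both directions). The median change of the 40 was 0.85 on the log2 scale, against -0.23 over all features, and 26 were positive. Over all features 35.8% were positive. When arrays were scaled to the spike-in spots, which moved the median of all features to 0.12, the split was 26 higher (background 29.2%) and 2 lower (background 16.5%). Among the 37 that were well above background on at least 1 array of each age, 22 were higher and 9 lower. Of the 33 called, 22 (Col10a1, well above background at 90 weeks only, among them) rose and 2 (Col4a3 and Col19a1) fell under the main scaling and each of 4 other scalings and background corrections.

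**Figure D2:**
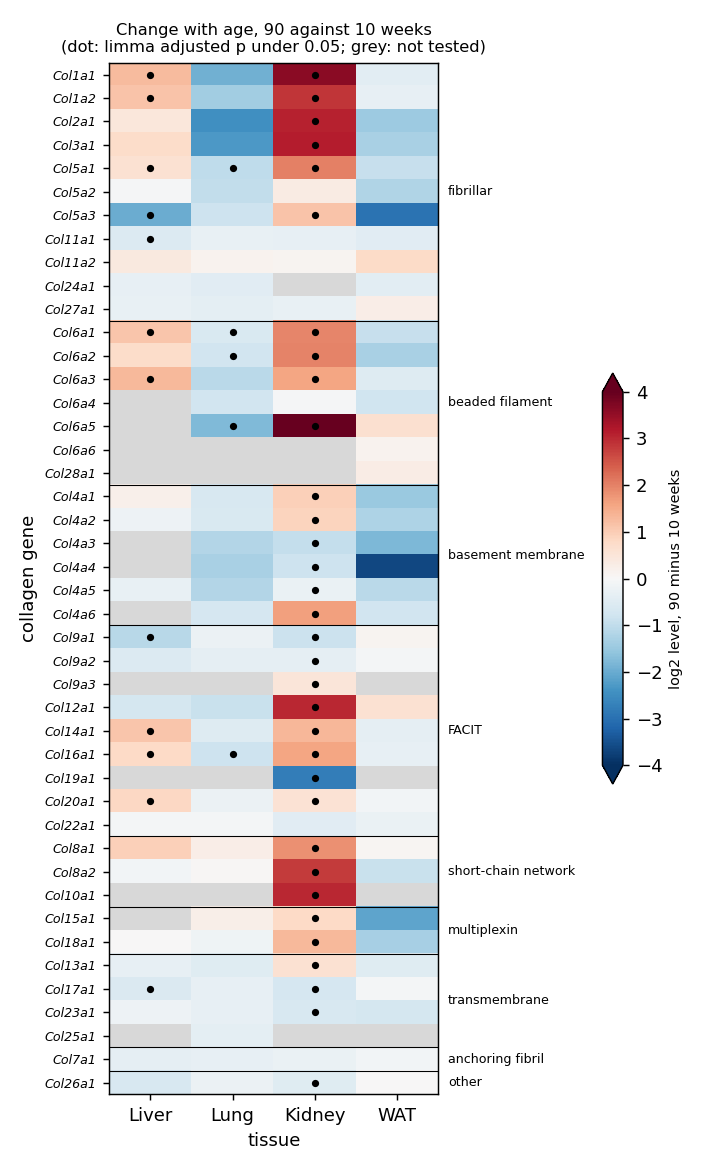
Heat map of the age change (log2 level at 90 weeks minus 10 weeks, colour scale) of the 44 collagen genes (rows, by class) in the 4 tissues (columns), with a dot where the limma adjusted p was under 0.05 and grey where a gene was not tested. The kidney column is mostly red, up to 4.05 for Col6a5, the lung column is blue for 35 of 39 genes, and the WAT column has no dot.

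Of 10 fibrillar chains tested in kidney 6 rose and none fell. Col1a1 measured 0.05, -0.22 and -0.24 on the young arrays and 3.70, 3.64 and 3.08 on the aged ones. Every aged array was above every young one, and the change was 3.61 ± 0.19 (SE), or 12.2-fold, with a limma adjusted p of 6.45e-05. Col1a2, its partner in collagen I, went from 2.72, 2.51 and 2.45 to 5.60, 5.53 and 5.10, a change of 2.85 (adjusted p = 7.38e-05). Col3a1 went from 1.02, 0.80 and 0.62 to 4.14, 4.17 and 3.56, a change of 3.14 (adjusted p = 0.000118). Again the ages did not overlap for either gene. Col2a1, best known from cartilage, was low at 10 weeks (-3.94, -3.84 and -4.25) and measured -0.74, -0.73 and -1.30 at 90 weeks, a change of 3.09. Beside it, 4 of 7 chondrocyte markers were tested in kidney and all 4 (Sox9, Comp, Hapln1 and Cnmd) were higher in aged kidney, by at most 0.68, while Acan, Matn1 and Matn3 were well above background on none of the 6 arrays. Of the 7 markers, 4 were well above background on no young kidney array and 3 on no aged one. A tested marker thus entered through the aged arrays alone, where it was brighter, and its call follows in part from the filter. The part of chondrocyte RNA in the Col2a1 value was not tested. At 10 weeks the only Col2a1 probe was highest in WAT (2.29, against -1.03 in lung, the next tissue), and what RNA it read was not tested. Of the collagen V chains, which co-assemble with collagen I, Col5a1 rose by 2.03 and Col5a3 by 1.13. Col5a2 measured -3.04, -2.64 and -3.06 in young and -2.42, -2.61 and -2.71 in aged kidney, so the highest young array lay between the aged ones, and its change of 0.33 missed the threshold (adjusted p = 0.0899).

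**Figure D3:**
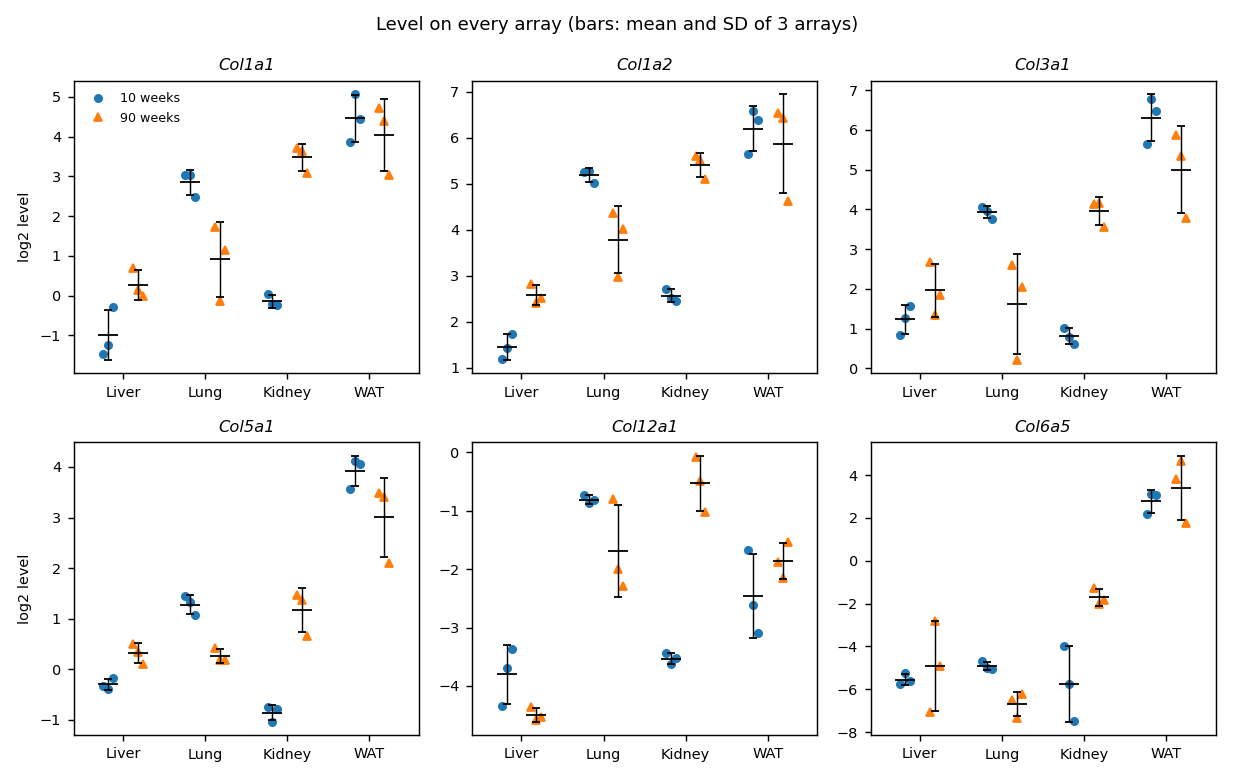
Log2 level of Col1a1, Col1a2, Col3a1, Col5a1, Col12a1 and Col6a5 on every array, by tissue and age (circles 10 weeks, triangles 90 weeks, bars the mean and SD of 3 arrays). In kidney the aged Col1a1 arrays lie at 3.08 to 3.70 and the young ones at -0.24 to 0.05, and in lung the order is turned, with aged arrays at -0.13 to 1.72 below the young at 2.47 to 3.03.

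Of 5 collagen VI chains tested in kidney 4 rose. Col6a1 went from 1.28, 1.04 and 1.07 to 3.25, 3.19 and 2.82, a change of 1.96 (adjusted p = 0.000184). Col6a2 rose by 1.97 and Col6a3 by 1.59 (its dimmer probe by 0.72), without overlap between ages. Col6a5, whose promoter stretch is printed above, had the largest fitted change (4.05 ± 0.84, adjusted p = 0.00663). Its young values of -4.0, -5.76 and -7.51 were well above background on 1 array only, and its aged values were -1.26, -2.02 and -1.84. After normexp background correction its change was 1.94, below that of Col1a1 (3.51). Col6a4 changed by -0.06 and was not called. Among FACITs, Col12a1, Col14a1, Col16a1, Col20a1 and Col9a3 rose and Col9a1, Col9a2 and Col19a1 fell, of 9 tested. Col12a1, which binds collagen I fibres, went from -3.43, -3.63 and -3.53 to -0.08, -0.48 and -1.02, a change of 3.0 (adjusted p = 0.000224). Its other probe, at the same level in young kidney (-3.54), changed by 0.30, and the mean of the probes by 1.65. Col9a3 was not well above background on any young kidney array, was at least 1.06-fold higher in aged kidney, and its direction turned under normexp background correction (-0.28). Of the short-chain collagens Col8a1 rose by 1.83 and Col8a2 by 2.79. Col10a1, a marker of hypertrophic cartilage, was not well above background on any young kidney array and at least 2.14-fold higher in aged kidney. Since Col9a3 and Col10a1 entered the test through the aged arrays alone, where they were brighter, their calls follow in part from the filter. The multiplexins Col15a1 and Col18a1 rose by 0.80 (2.08 by the other Col15a1 probe) and 1.29. Of the membrane-spanning chains Col13a1 rose by 0.61, and Col17a1 and Col23a1 fell by 0.68 and 0.63. A further probe of each of these last genes changed the other way in kidney, by 2.67 for Col17a1 and 0.28 for Col23a1. Col26a1 fell by 0.47, or by 0.87 by its other probe, which was brighter in young kidney (-0.77 against -3.63). The 7 collagens tested in kidney and not called were Col5a2, Col6a4, Col7a1, Col11a1, Col11a2, Col22a1 and Col27a1.

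Kidney collagen IV chains changed in both directions. Col4a1 measured 2.98, 2.95 and 2.91 at 10 weeks and 3.99, 4.14 and 3.53 at 90 weeks, and rose by 0.94 ± 0.16 (SE; limma adjusted p = 0.00338). Its neighbour Col4a2 rose by 0.89 (adjusted p = 0.00223), from 2.91, 2.83 and 2.84 to 3.86, 3.93 and 3.45. The pair changed by like amounts. Col4a3 went the other way, from 1.23, 0.82 and 0.74 to -0.03, -0.10 and 0.03, and fell by 0.96 (adjusted p = 0.00182). Col4a4, beside it on chromosome 1, fell by 0.83 (adjusted p = 0.00246), from 1.68, 1.45 and 1.33 to 0.55, 0.57 and 0.86. Under spike-in scaling Col4a3 fell by 0.61 and stayed past the threshold, and Col4a4 fell by 0.47 and did not (adjusted p = 0.0558). On chromosome X the neighbours parted: Col4a6 rose by 1.63 (adjusted p = 0.000251), whereas Col4a5 fell by 0.26 (adjusted p = 0.0362) but changed by 0.09 in the other direction under spike-in scaling. Podocytes are a source of the Col4a3, Col4a4 and Col4a5 chains, and 3 of 5 podocyte markers were higher and none lower in aged kidney, with mean levels of 1.41 to 1.48 at 10 weeks and 1.70 to 2.16 at 90 weeks.

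**Figure D4:**
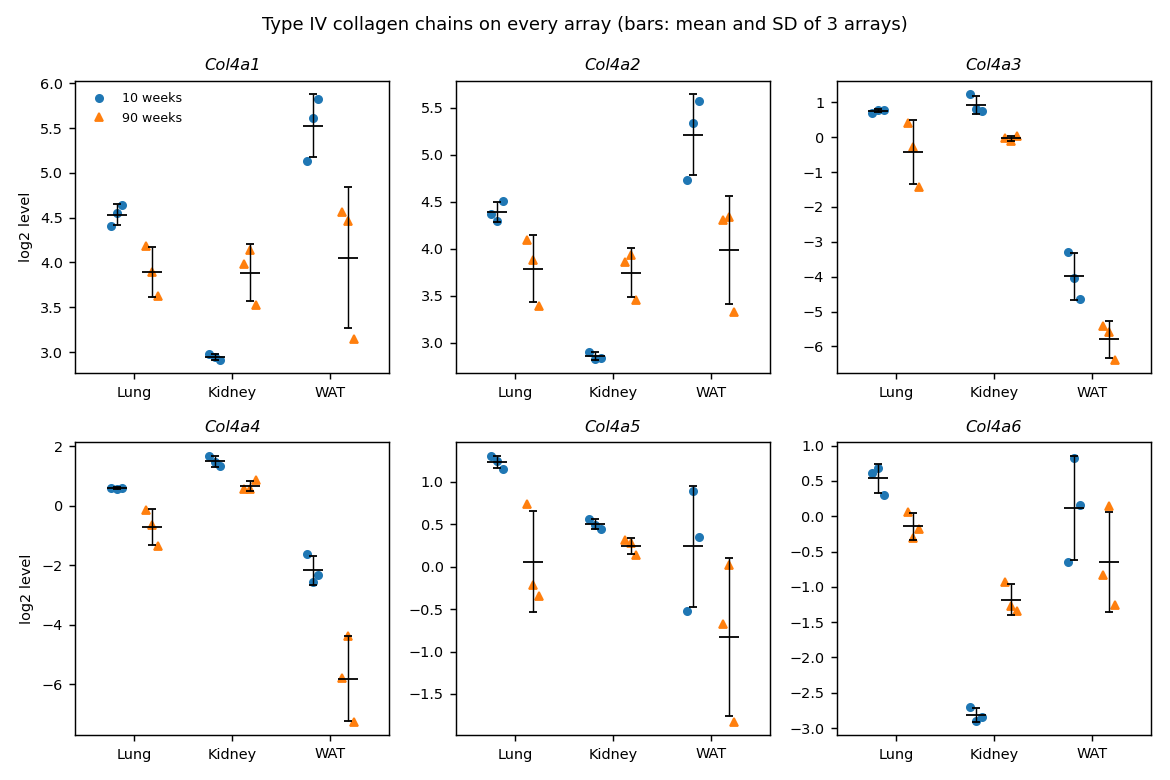
Log2 level of the 6 collagen IV genes on every lung, kidney and WAT array, by age (circles 10 weeks, triangles 90 weeks, bars the mean and SD of 3 arrays). In kidney Col4a1, Col4a2 and Col4a6 are higher at 90 weeks and Col4a3 and Col4a4 lower, and in lung the aged arrays are below the young ones for all 6 genes.

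Several other marker lists also changed in aged kidney, where 20.7% of all features were called higher and 42.5% lower. All 8 fibroblast markers rose, with mean levels of -0.96 to -0.70 on the young arrays and 1.39 to 2.0 on the aged arrays. Of 5 smooth muscle markers 4 rose (0.88 to 1.1 against 1.73 to 2.24), and of 4 mesothelial markers tested 3 rose. The 5 defining markers of the kidney itself had 4 lower and 1 higher (6.74 to 6.87 against 5.69 to 6.28). Of the 8 fibroblast markers, Dcn and Lum also stand in the proteoglycan list counted further on. Of 5 adipocyte markers 4 were higher and 1 lower (-3.12 to -1.49 against -1.57 to -0.20). All 5 macrophage markers rose (-0.36 to -0.16 against 2.99 to 3.72), as did all 5 markers of B and plasma cells (-3.87 to -3.01 against -0.55 to 0.05). Of 5 T cell markers 4 were higher and 1 lower (-1.63 to -1.29 against 0.27 to 0.40). Endothelial markers had 0 of 5 higher and 1 lower (1.27 to 1.40 against 1.23 to 1.41). Among 4 basal epithelial markers tested 0 were higher and 3 lower. The hepatic stellate cell list had 2 of 5 higher and 2 lower, and skeletal and cardiac muscle 2 of 4 higher and 1 lower. Fewer cells of a type and less RNA per cell cannot be told apart in whole tissue, nor can more cells and more RNA, and the part of these cells in the collagen changes was not tested.

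In liver both chains of collagen I and 2 of the 3 main chains of collagen VI rose. Of 32 collagens tested, 8 were higher (background over all 27869 features 10.6%) and 4 lower at 90 weeks (background 16.8%), and levels did not overlap between ages for 9 that were higher and 7 that were lower (background 49.8%, both directions). The median change was -0.06, against -0.20 over all features. The split between directions moved with the scaling: it was 5 higher (background 9.94%) and 1 lower (background 3.02%) with spike-in spots, 8 and 2 when centred on the median probe, and 8 and 3 after quantile normalisation.

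Col1a1 measured -1.46, -1.25 and -0.27 on the young liver arrays and 0.70, 0.14 and -0.01 on the aged arrays, a change of 1.27 ± 0.35 (SE; limma adjusted p = 0.0375). Col1a2 went from 1.18, 1.42 and 1.74 to 2.82, 2.40 and 2.51, a change of 1.13 (adjusted p = 0.0124). The ages did not overlap for either chain. Col6a3 had the largest rise in liver, from -0.78, -0.66 and -0.12 to 0.89, 0.93 and 0.54, a change of 1.31 (adjusted p = 0.0105), or 0.52 by its dimmer probe. Col6a1 rose by 1.1 (adjusted p = 0.0145), from 0.58, 0.63 and 0.78 to 2.13, 1.73 and 1.41. Col6a2 changed by 0.74 and missed the threshold (adjusted p = 0.0839), the highest young array (-1.65) lying above the lowest aged one (-1.73). Col5a1, Col14a1, Col16a1 and Col20a1 were the other 4 that rose, by 0.62 to 1.1.

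Col3a1 was not among them. It measured 0.84, 1.27 and 1.58 in young and 2.68, 1.35 and 1.86 in aged liver, so the ages overlapped, and its change of 0.73 missed the threshold (adjusted p = 0.163). Col5a2 was near -4.14 at both ages and had a change of -0.06 (adjusted p = 0.819), whose sign turned under several settings. Col4a1 (0.21) and Col4a2 (-0.21) were not called either. Col5a3 fell most, from 2.52, 2.66 and 2.93 to 0.95, -0.34 and 1.58, a change of -1.98 ± 0.46 (SE; adjusted p = 0.0234). This was the reverse of Col5a1, a chain of the same collagen, which rose in the same livers. The cartilage-type FACIT chain Col9a1 fell by 1.12, the hemidesmosome collagen Col17a1 by 0.59 and Col11a1 by 0.54. Col18a1, the collagen with the highest level in young liver relative to other tissues, averaged 7.12 and 7.13 at the 2 ages.

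The liver counts changed when single arrays were left out, to 1 to 6 higher and 0 to 3 lower. There were 2 higher and 1 lower without young replicate 1, 1 higher and 0 lower without young replicate 2, and 6 higher and 1 lower without young replicate 3. Leaving out aged arrays gave 3 higher and 2 lower (replicate 1), 6 higher and 2 lower (replicate 2) and 5 higher and 3 lower (replicate 4). Over all features 2947 were higher and 4685 lower with all arrays. Leaving out 1 array gave the fewest, 1508 and 977, without young replicate 2, and the most, 2730 and 4375, without aged replicate 4. In the same livers 5 of 8 fibroblast markers and 4 of 5 hepatic stellate cell markers rose and none fell (5 and 1 with spike-in scaling), and all 5 macrophage markers rose. The mean stellate level was 0.50 to 0.59 on young and 1.40 to 1.45 on aged arrays. The part of these cells in the collagen changes was not tested.

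In lung the collagen changes were mostly negative. Of 39 tested, 35 had a negative change, with a median of -0.60 against -0.08 over all features. Over all features 39.4% had a positive change. Limma called 5 lower (background over all 30312 features 2.86%) and 0 higher (background 2.7%). At an unadjusted p under 0.05 there were 22 lower (background 17.7%) and 0 higher (background 9.2%). Of all features an unmoderated t-test called 91 higher and 120 lower after Benjamini-Hochberg adjustment, and of the collagens none in either direction. Levels did not overlap between ages for 24 genes, all lower at 90 weeks (background 35.8%).

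The 5 that fell were Col5a1, Col6a1, Col6a2, Col6a5 and Col16a1. Col5a1 went from 1.44, 1.32 and 1.07 to 0.42, 0.17 and 0.18, a change of -1.02 ± 0.14 (SE; limma adjusted p = 0.0194). Col6a1 went from 4.40, 4.59 and 4.66 to 4.08, 3.89 and 3.90 (-0.60, adjusted p = 0.0419), and Col6a2 from 1.59, 1.78 and 1.84 to 1.20, 0.78 and 0.96 (-0.75, adjusted p = 0.0393). In each case the lowest young array was above the highest aged one. Col16a1 fell by 0.83, from 2.47, 2.62 and 2.69 to 2.07, 1.59 and 1.62. Col6a5 was well above background on the 3 young arrays only and was at least 1.45-fold lower in aged lung (adjusted p = 0.0317). It entered the test through the young arrays alone, where it was brighter, and without it 4 of 38 were called lower.

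Several chains with large differences in lung were not called. Col3a1 measured 4.06, 3.97 and 3.76 at 10 weeks and 2.61, 0.21 and 2.04 at 90 weeks. Aged replicate 2 was far below the other aged arrays, and the change of -2.31 ± 0.60 (SE) had an adjusted p of 0.0821. Col1a1 measured 3.03, 3.03 and 2.47 against 1.72, -0.13 and 1.15, with a change of -1.93 (adjusted p = 0.0751). Col1a2 differed by -1.40 (adjusted p = 0.0796) and Col2a1 by -2.45 (adjusted p = 0.0931), and aged replicate 2 was lowest for both. Col5a2 measured -1.57, -1.88 and -1.82 against -2.25, -3.21 and -2.74, a difference of -0.98 (adjusted p = 0.0797). For all these genes the young arrays were above the aged arrays without overlap.

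The same held for the 6 collagen IV chains of lung. Their differences were -0.64 for Col4a1, -0.60 for Col4a2, -1.18 for Col4a3, -1.29 for Col4a4, -1.17 for Col4a5 and -0.68 for Col4a6, with adjusted p from 0.0604 to 0.162, and in each the 3 young arrays were above the 3 aged ones. None passed the threshold. Col4a1 measured 4.40, 4.56 and 4.64 at 10 weeks and 4.18, 3.89 and 3.62 at 90 weeks, and Col4a2 measured 4.37, 4.29 and 4.51 against 4.09, 3.88 and 3.39. Col6a3 differed by -1.06 (adjusted p = 0.0777).

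The lung count depended on single arrays and on the scaling, as did the number called over all features. No collagen was called when any 1 of the 3 young arrays was left out, 11 were called lower without aged replicate 1, 6 without aged replicate 2 and 2 without aged replicate 3. Over all features 1, 8 and 73 were called lower without young replicates 1, 2 and 3, against 868 with all arrays. Without aged replicates 1, 2 and 3 it was 900, 751 and 488. At an unadjusted p under 0.05, 19, 17 and 19 collagens were lower without young replicates 1, 2 and 3. Scaling to spike-in spots gave 13 lower (background 4.48%). Markers of other cells and tissues also differed between the lung arrays. The 5 adipocyte markers had mean levels of 1.5 to 2.25 on the young and -2.25 to 0.24 on the aged arrays, with 2 of 5 called lower. Among them Adipoq measured 2.76, 2.87 and 1.68 at 10 weeks and -6.86, -7.54 and -1.18 at 90 weeks. Of the basal epithelial markers 2 of 4 tested were lower (mean levels -2.10 to -1.74 against -3.38 to -3.05). Skeletal and cardiac muscle markers ranged from 2.05 to 3.33 on young and from -0.56 to 2.37 on aged arrays. Liver markers had a mean level of 2.96 on aged replicate 1 against -2.11 and -3.98 on the other aged arrays. The fibroblast list had 2 of 8 lower and 1 higher, with mean levels of 2.28 to 2.70 against 1.63 to 1.87. Of 5 smooth muscle markers 1 was called lower (3.91 to 4.29 against 3.09 to 3.40), and of 5 T cell markers 4 were called higher (0.03 to 0.31 against 1.20 to 1.80). The part of these cells and tissues in the lung collagen values was not tested.

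In WAT no collagen passed the threshold. Of 40 tested, limma called 0 higher (background over all 30042 features 1.99%) and 0 lower (background 0.566%). At an unadjusted p under 0.05 there were 1 higher (background 9.83%) and 9 lower (background 9.41%). Of all features the unmoderated t-test called 1 higher and 0 lower after adjustment, and of the collagens none. The median change was -0.48, against -0.05 over all features, with 31 of 40 negative. Over all features 44.9% had a positive change. Levels did not overlap between ages for 1 that was higher and 11 that were lower (background 28.7%, both directions). When the spread was estimated from all 24 arrays in 1 fit, 11 collagens were called lower (background 10.4%) and 1 higher (background 10.8%) in WAT.

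The largest WAT differences were in Col4a4, Col5a3 and Col15a1. Col5a3 measured 6.00, 5.99 and 6.17 at 10 weeks and 3.71, 3.89 and 1.69 at 90 weeks, with a difference of -2.96 ± 0.59 (SE; limma adjusted p = 0.0654). All aged arrays were below all young ones. Col4a4 differed by -3.65 (adjusted p = 0.064), but was well above background on 1 aged array only. Col4a3 was well above background on no aged array, and the measured signals put it at least 2.90-fold lower there (adjusted p = 0.0938). Col15a1, a basement membrane multiplexin, measured -1.16, -1.53 and -1.34 against -3.20, -2.64 and -4.54 (adjusted p = 0.088). Col4a1 differed by -1.47, from 5.14, 5.62 and 5.82 to 4.56, 4.46 and 3.14, and Col4a2 by -1.22, from 4.73, 5.34 and 5.57 to 4.30, 4.34 and 3.33. Neither was called, although the ages did not overlap.

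For most other WAT collagens the ages overlapped. Col1a1 measured 3.87, 5.06 and 4.45 against 4.72, 4.39 and 3.02, and Col1a2 5.64, 6.58 and 6.38 against 6.54, 6.43 and 4.63. In both genes aged replicate 3 was the lowest of the 6 arrays, and without it the differences became 0.09 and 0.29 in place of -0.42 and -0.33. Col6a3 turned in the same way, from -0.50 to 0.18. Col3a1 differed by -1.31 (5.66, 6.79 and 6.48 against 5.88, 5.35 and 3.78, adjusted p = 0.297). Col5a2 differed by -1.19 (adjusted p = 0.132), Col6a1 by -0.93 and Col6a2 by -1.29. Over all 44 collagens the mean level was -2.0 on aged replicate 3 and -1.13 and -1.05 on the other aged arrays, and without that array 15 of 40 collagens had a positive difference instead of 9. Col6a5 had a positive difference of 0.63 (2.17, 3.10 and 3.08 against 3.84, 4.64 and 1.75, adjusted p = 0.688). All 5 markers of B and plasma cells, 3 of 5 T cell markers and 2 of 5 macrophage markers rose in aged WAT, and no fibroblast marker of 8 was called. Young WAT replicate 1 had a mean basal epithelial level of -0.24 against -2.91 and -3.47 on the other young arrays.

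**Figure D5:**
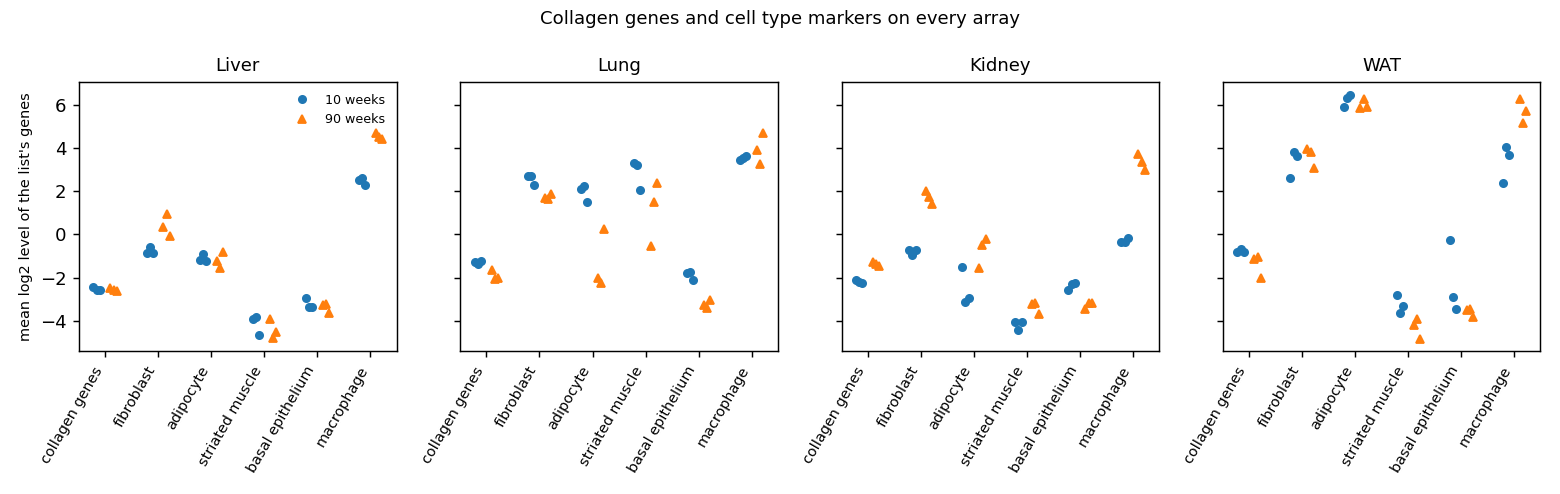
Mean log2 level of the 44 collagen genes and of 5 marker lists (fibroblast, adipocyte, skeletal and cardiac muscle, basal epithelium, macrophage) on every array, by tissue (panels) and age (circles 10 weeks, triangles 90 weeks). In kidney the fibroblast and macrophage lists are higher on all 3 aged arrays, in lung the adipocyte list is lower on all 3, and in WAT aged replicate 3 has the lowest collagen mean (-2.0).

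The age change of many collagens differed between the tissues. A limma F test over all 24 arrays called 17 of the 31 collagens tested in every tissue (background over all 25741 features 37.6%). The smallest adjusted p were those of Col1a1 (5.14e-05), Col5a1 (5.29e-05), Col12a1 (7.72e-05), Col1a2 (0.000155) and Col3a1 (0.000179). Col1a1 had a change of 1.27 in liver, -1.93 in lung, 3.61 in kidney and -0.42 in WAT. Col5a1 had 0.62, -1.02, 2.03 and -0.92 in the same order, and Col3a1 had 0.73, -2.31, 3.14 and -1.31. Liver and kidney values were positive and lung and WAT values negative for 12 of the 17 called, and for 13 of the 31 tested. Among the 12, Col18a1 was at 0.0065 in liver. The WAT signs of Col1a1, Col1a2 and Col6a3 turned without aged replicate 3. Col12a1 had a different order, -0.69 in liver, -0.88 in lung, 3.0 in kidney (0.30 by its other probe) and 0.60 in WAT. For 16 of the 17 the lung value was negative and the kidney value positive, Col8a2 being the exception with 0.05 in lung and 2.79 in kidney. The 17 were called because their changes differed, so opposite signs among them follow in part from the test. The share of all features with these signs was not counted. Without the kidney arrays 5 collagens were called (background 13.7%), without the lung arrays 16 (background 24%) and without the WAT arrays 20 (background 40.4%). Among those that missed the threshold were the cartilage-type Col9a1, Col9a2, Col11a1 and Col11a2, Col4a5 and the anchoring-fibril collagen Col7a1.

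The proteins that make, process and bind collagen were counted from 4 lists. For comparison, 20.7% of all features were called higher and 42.5% lower in kidney. In kidney 9 of 12 processing and cross-linking genes were higher and 1 lower. They included Lox, the copper enzyme that cross-links collagen, which rose by 2.91, and Adamts2, the peptidase that trims the amino end of procollagen, which rose by 2.73. Of 9 collagen receptors 8 were higher and none lower, with Itga11 (the integrin chain for fibrillar collagen) at 3.72 and Lair1 (an inhibitory receptor of immune cells) at 3.31. In this list 2 genes were well above background on no young kidney array and 1 on no aged one, so a tested receptor entered through the aged arrays alone. Of 6 small leucine-rich proteoglycans 5 rose, led by Lum at 4.23 and Dcn at 1.57. The folding and hydroxylation list was divided, with 6 of 18 higher and 6 lower. With spike-in scaling it had 8 higher and 1 lower, where all features had moved to 29.2% higher and 16.5% lower. Fkbp10, a prolyl isomerase for procollagen, rose by 2.29 and P3h3, of the prolyl 3-hydroxylase family, by 1.85.

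The other tissues had fewer calls. Over all features 10.6% were called higher and 16.8% lower in liver, 2.7% and 2.86% in lung, and 1.99% and 0.566% in WAT. In liver 4 of 12 processing genes were higher and none lower, led by Pcolce (1.37), an enhancer of procollagen cleavage, and Loxl3 (1.30). Receptors had 2 of 9 higher, Lair1 at 2.34 and Ddr2 at 0.78, and the proteoglycans 3 of 6 higher and 1 lower (Lum 1.38, Fmod -1.57). The folding list had 5 of 17 higher and 2 lower, and 2 and 1 with spike-in scaling (backgrounds 9.94% and 3.02%). Plod2, a lysyl hydroxylase, was at least 2.12-fold higher and P4ha3 at least 1.71-fold lower. Plod2 entered the test through the aged liver arrays alone and P4ha3 through the young ones alone, each where it was brighter. Both are in the counts of the folding list, and their calls follow in part from the filter. In lung the calls were few and all lower. They were 1 of 18 folding genes (P4ha1, -0.76), 2 of 12 processing genes (Pcolce, -0.77, and Pcolce2, -0.60), 1 of 10 receptors (Ddr2, -0.49) and 1 of 7 proteoglycans (Prelp, -0.65). With spike-in scaling 4 folding and 5 processing genes were called lower in lung (background 4.48%). In WAT limma called 0 of 17 folding genes (2 lower at an unadjusted p under 0.05), 0 of 12 processing genes and 0 of 7 proteoglycans (none at an unadjusted p under 0.05). Of 9 receptors in WAT 1 was called, Lair1, which rose by 3.51. Lair1 is carried by leukocytes. All 5 macrophage markers rose in kidney and in liver and 2 of 5 in WAT, and the part of these cells in the Lair1 values was not tested.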

How the data were processed

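Total RNA of liver, lung, kidney and WAT was labelled with Cy3 and hybridised to single-colour Agilent arrays of a mouse design with 62976 spots, and per the file headers the authors extracted the deposited intensity values with Agilent Feature Extraction 11.0.1.1, whose processed signal is already background-subtracted. The submitters' processing notes name the same software. Intensity values were not normalised between arrays.

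From these, 1841 spots with a flag for unevenness or outlying pixels were dropped, spots of a probe were averaged, and the log2 signal minus the 75th percentile of the array was taken. Of 56605 probes 32994 (58.3%) matched a symbol through their accession in the RefSeq table (GRCm38.p6). Of the collagen genes 22 had 1 probe, 21 had 2 and 1 had 3, and the brightest by the mean over 24 arrays stood for a gene in every tissue. Splice forms and the other probes, some of them brighter within a tissue, were not used in the main fits. Ages were compared within a tissue, tissues at 10 weeks and the difference of age changes between tissues by limma 3.58.1 in R 4.3.3 (lmFit and eBayes, two-sided, Benjamini-Hochberg over all features tested, threshold 0.05). Where a group had no probe well above background, a bound on the fold was set from the lowest signal well above background on each array. The number of arrays limits the precision.

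Fully described were, per tissue, the 5 called collagens with the largest change whose ages did not overlap and whose brighter age was well above background on all arrays, the 5 with the smallest p of the F test, Col3a1 and Col5a2, the common chains of collagens I, IV and VI, and the 2 largest called genes of each further list. Others were named to complete a class. The members, marker lists and tests were chosen with earlier results of these data known. Alternatives were other scalings and background correction (normexp with offset 16), no filter, other probe rules and a fit of all arrays. Further ones were a replicate block, an ordinary unmoderated t-test and leaving out arrays. The study states an unpaired t-test for comparisons of independent groups and names no test for these tissue arrays. The code was tested on simulated data.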

Additional observations from a re-analysis of the deposited data

Results flagged for a closer look

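For 17 collagens the change with age differed between the 4 tissues by the limma F test over 24 arrays. Among the fibrillar chains the adjusted p was 5.14e-05 for Col1a1, 5.29e-05 for Col5a1, 0.000155 for Col1a2, 0.000179 for Col3a1, 0.000794 for Col5a3, 0.000865 for Col2a1 and 0.00547 for Col5a2. Col5a3 had the same sign in liver (-1.98), lung (-0.82) and WAT (-2.96) and the other in kidney (1.13). For the collagen VI chains the adjusted p was 0.000766 for Col6a1, 0.00151 for Col6a2 and 0.00223 for Col6a3. For the collagen IV chains it was 0.00182 for Col4a1 and 0.00307 for Col4a2, which rose in kidney, by 0.94 and 0.89, and differed by -1.47 and -1.22 in WAT.

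Among the FACITs it was 7.72e-05 for Col12a1, 0.00276 for Col16a1 and 0.0369 for Col20a1. Col8a2 had an adjusted p of 0.000506 and a change near 0 in liver (-0.10) and lung (0.05). Col18a1 had 0.00486, with 1.29 in kidney and -1.32 in WAT.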

How the results depend on the processing

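Each of 15 counts of called collagens was recomputed under every alternative, and 246 of 283 values were within 1.5 times the main count. The kidney rises (24) ranged from 19 to 26, and the number called between each pair of tissues at 10 weeks stayed within that factor. Directions between tissues did not: lung against WAT went from 8 higher and 18 lower to 19 and 11 with spike-in scaling, and liver against kidney from 8 and 13 to 15 and 11 with normexp. Scaling to spike-in spots gave 5 higher and 1 lower in liver, 13 lower in lung and 2 lower in kidney. Normexp gave 14 lower in kidney and 2 lower in WAT, centring on the median 2 lower in liver and 1 lower in WAT, quantile normalisation 3 lower in lung, and no filter 0 lower in lung. A fit of all 24 arrays gave 5 higher in liver, 3 lower in kidney, and 1 higher and 11 lower in WAT. The unmoderated t-test gave 2 higher and 1 lower in liver and 0 lower in lung. The F test without the kidney arrays called 5. Same-numbered young and aged arrays had correlations of deviations from -0.10 to 0.20 and were not all over 0.1 in any tissue, so ages were not taken as paired. Between tissues at 1 age they ran from -0.22 to 0.30, with all 3 pairs over 0.1 for kidney and WAT at 90 weeks alone. With the replicate block across tissues the F test called 17 as before. With the replicate block within a tissue, which joined the ages by number, 1 was higher and 0 lower in liver, 0 lower in lung, and 24 and 9 in kidney. In lung that block called 1 feature higher and 0 lower over all features, so the 0 there held for every feature. In liver it called 1076 and 620 features, and young replicate 3 and aged replicate 4 had no partner, so the fit rested on the other arrays. Leaving out 1 array gave 1 to 6 higher and 0 to 3 lower in liver, 0 to 11 lower in lung and 0 to 1 lower in WAT. Calls over all features moved too, in lung to 1 higher and 1 lower without young replicate 1. Signs turned for Col5a2 in liver (0.0732 quantile, 0.108 spike-in, 0.0112 centred, 0.0133 replicate block, -0.176 to 0.0198 leaving out 1 array) and Col4a2 in liver (0.161 replicate block, -0.455 to 0.00229). In WAT the range leaving out 1 array was -0.756 to 0.0924 for Col1a1, -0.67 to 0.29 for Col1a2 and -0.99 to 0.18 for Col6a3. The cause was not tested. Collagens not well above background, such as 12 of 44 in liver, have no measured change.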
